A study of Homo sapiens with 12 samples.

Results

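Metallothioneins are small cysteine-rich proteins that bind zinc and copper, and 6 of their genes, MT1E, MT1F, MT1G, MT1M, MT1X and MT2A, were followed through 12 RNA-seq libraries of AsPC-1, a long-established human pancreatic cancer cell line. The 6 genes were chosen by their symbols, out of 57820 gene IDs in the files, because MT1E fell in hypoxia under both siRNAs. The hypoxia changes of all 6 are therefore given as a description. Only the effect of the siRNA and its difference between oxygen levels are read as tests, the latter not for MT1E. The study asked how the transcriptional response to low oxygen depends on ARNT, the partner that HIF alpha subunits need in order to bind DNA. Cells were transfected with siRNA, scrambled (siControl) or directed at ARNT (siARNT), and were then kept at 21% O2 (normoxia) or moved to 1% O2 for 24 h (hypoxia). All groups were transfected and harvested 48 h later, all came from this 1 cell line, and each of the 4 groups had 3 replicates, A, B and C. Nothing in the labels says that the replicates were independent cultures, so the p-values measure only the spread between these samples.

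In human cells most metallothionein genes lie side by side in 1 cluster on the long arm of chromosome 16. Their transcription is switched on by the zinc-sensing factor MTF1, which binds short metal response elements in their promoters, and MT2A also responds to glucocorticoids. The proteins buffer free zinc, take up cadmium and copper, and react with oxidants through their many cysteines. ARNT also pairs with the aryl hydrocarbon receptor, so its loss is not a loss of HIF activity alone.

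Promoter letters are given because metal response elements are the shared feature by which this family is known to be regulated. RefSeq promoter windows (GRCh38.p14), the 250 bases before RefSeq's start, were at hand for 2 of the 6 members. They are chr16:56608334-56608583 for MT2A and chr16:56682220-56682469 for MT1X, both on the plus strand. GENCODE 29 starts both genes further upstream, so that all 250 bases of the MT2A window and the last 46 of the MT1X window lie in an annotated first exon, and only the 204 bases of MT1X before that exon are printed, chr16:56682220-56682423, 5′ to 3′, with each match to the metal response element core in capitals.
MT1X: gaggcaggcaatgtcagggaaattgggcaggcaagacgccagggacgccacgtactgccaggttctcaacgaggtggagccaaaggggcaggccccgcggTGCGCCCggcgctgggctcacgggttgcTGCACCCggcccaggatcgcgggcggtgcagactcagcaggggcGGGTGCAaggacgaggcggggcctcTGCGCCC
The letters searched were TGCACNC and TGCGCNC on both strands. MT1X held 4 matches, all in the printed bases, and MT2A held 7. In MT2A they lay between positions -246 and -2 from RefSeq's start. Of 35116 promoter windows of the same length, 24.8% held at least 1 match, 0.37% held 4 or more and 0.0313% held 7 or more. The hypoxia response element core, searched as ACGTG and GCGTG on both strands, matched once in each window, and 43.2% of all windows held it. In MT2A that match, 86 to 90 bases before the start, overlapped a metal response element match that lay 82 to 88 bases before it. These matches describe letters and do not show that a factor was bound.

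Gene models of GENCODE 29 (GRCh38) place the members on chromosome 16 in the order MT2A (56608199 to 56609497), MT1E (56625475 to 56627112), MT1M (56632233 to 56633986), MT1F (56657694 to 56660698), MT1G (56666731 to 56668065) and MT1X (56682424 to 56684196). MT1G alone is on the minus strand. Near-identical copies could split reads within this family. Every stretch of 125 bases, the length of a read, in each gene's longest transcript was therefore compared with the transcripts of other genes. Exon bases outside that transcript were not compared. No such stretch of MT1E, MT1F, MT1G, MT1M or MT2A occurred in another gene, and 6.2% of those of MT1X did. With 50-base stretches, as trimming can leave, the shared part was 14.7% for MT1X, 14.3% for MT1G, 10.6% for MT1E, 7.1% for MT1M, 4.7% for MT2A and 0.1% for MT1F. The values of MT1X, MT1G and MT1E carry that uncertainty.

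Each library held 38.53 to 84.34 M counts assigned to genes, and 16999 genes were tested with edgeR's quasi-likelihood test, with Benjamini-Hochberg adjustment over all of them and a call at an adjusted p under 0.05. ARNT itself fell by 2.22 on the log2 scale under siARNT at 21% O2 (adjusted p = 8.99e-09), and at 1% O2 it fell by 2.17 (adjusted p = 2.65e-09). All 8 epithelial marker genes were tested, with a summed level of at least 5914 CPM (counts per M reads in genes, scaled by TMM) in every library. Of the markers of other cells, PTPRC, CD3E, CDH5, KDR, COL1A1 and COL1A2 were too low to test and PECAM1 was not matched, while LUM and LYZ were high (334.6 to 592.2 and 129.5 to 229.2 CPM).

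The summed level of the 6 genes at 21% O2 was 19.7 ± 1.57 CPM with siControl and 38.9 ± 14.1 with siARNT (SD, n = 3 each). At 1% O2 it was 5.18 ± 0.902 CPM with siControl and 6.84 ± 1.09 with siARNT. The family was thus lowest at 1% O2 whichever siRNA was given, and highest at 21% O2 with siARNT. Since bulk RNA was measured, fewer cells with a transcript and less of it per cell cannot be told apart.

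**Figure D1:**
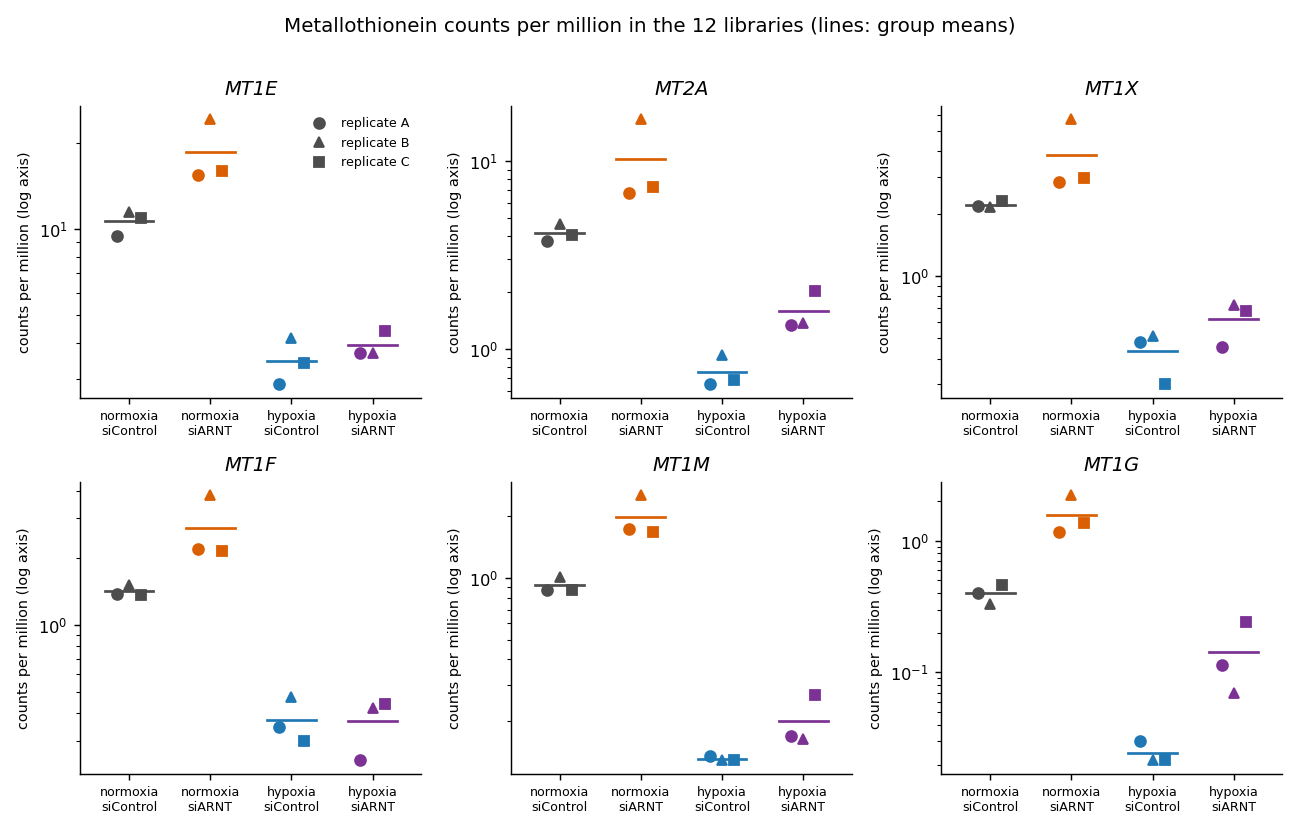
CPM (log axis) of each metallothionein in the 12 libraries, by group, with 1 symbol per replicate and a line at the group mean. For all 6 genes the 6 hypoxia libraries lie below the 6 normoxia libraries, and normoxia siARNT B is the highest library.

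MT1E is the most abundant of the 6 per length and the one the choice of genes started from. In replicates A, B and C it stood at 9.47, 11.51 and 10.93 CPM in normoxia siControl and at 15.45, 24.22 and 15.97 in normoxia siARNT. In hypoxia it stood at 2.87, 4.15 and 3.39 CPM with siControl and at 3.69, 3.68 and 4.41 with siARNT. Every hypoxia library lay below every normoxia library, and the siARNT libraries lay above the siControl libraries in normoxia, while in hypoxia the siRNA groups overlapped. The fitted hypoxia change was -1.62 (SE 0.19) with siControl and -2.24 (SE 0.192) with siARNT on the log2 scale.

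MT2A, the major metallothionein in many human cells and the member known for glucocorticoid induction, stood at 3.73, 4.62 and 4.03 CPM in normoxia siControl and at 6.75, 16.67 and 7.26 in normoxia siARNT. In hypoxia it was at 0.649, 0.924 and 0.687 CPM with siControl and at 1.34, 1.38 and 2.05 with siARNT. The 4 groups did not overlap for this gene, with siARNT above siControl at both oxygen levels. Its fitted hypoxia change was -2.46 (SE 0.359) with siControl and -2.69 (SE 0.339) with siARNT.

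MT1X and MT1F are further MT1 isoform genes expressed in many tissues. In normoxia MT1X was at 2.18, 2.17 and 2.3 CPM with siControl and at 2.85, 5.72 and 2.96 with siARNT, and in hypoxia at 0.483, 0.516 and 0.301 with siControl and 0.454, 0.726 and 0.682 with siARNT. MT1F was at 1.37, 1.51 and 1.36 CPM with siControl and at 2.19, 3.81 and 2.14 with siARNT in normoxia, and in hypoxia at 0.347, 0.473 and 0.301 with siControl and 0.246, 0.422 and 0.438 with siARNT. In both genes the siRNA groups were separate in normoxia and overlapped in hypoxia. The fitted hypoxia changes were -2.34 (SE 0.312) and -2.64 (SE 0.3) for MT1X, with siControl and siARNT, and -1.92 (SE 0.289) and -2.89 (SE 0.288) for MT1F.

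MT1M and MT1G, the least abundant members by count, came near the detection limit in hypoxia. MT1M stood at 0.873, 1.01 and 0.873 CPM in normoxia siControl and at 1.73, 2.52 and 1.67 in normoxia siARNT. It stood at 0.136, 0.129 and 0.129 CPM in hypoxia siControl and at 0.17, 0.164 and 0.268 in hypoxia siARNT, where 6 to 11 reads per library lay behind each value. Its fitted hypoxia change was -2.78 (SE 0.264) with siControl and -3.3 (SE 0.239) with siARNT.

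MT1G stood at 0.403, 0.328 and 0.464 CPM in normoxia siControl and at 1.17, 2.21 and 1.35 in normoxia siARNT. Only 2, 1 and 1 reads remained in the hypoxia siControl libraries, against 6, 3 and 10 in hypoxia siARNT. Summed over replicates, 70 reads in normoxia siControl faced 4 in hypoxia siControl, a ratio of 16 after scaling (95% interval 5.99 to 60.5). With siARNT 297 reads faced 19, a ratio of 11 (6.91 to 18.5). These intervals cover counting error only. MT1G and MT1M passed the filter on low counts through their normoxia libraries, since none of the 3 hypoxia siControl libraries and 1 of the 3 hypoxia siARNT libraries reached its threshold, and the other 4 members passed in every library.

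In hypoxia with siControl all 6 members were called lower and did not overlap between the groups. Of all tested genes, 14.9% were called lower and 10.4% higher there, and 25.3% did not overlap and were lower. Ordered by fitted change among the 16999 genes, from the lowest, MT1G was at position 1, MT1M at 2, MT2A at 3, MT1X at 5, MT1F at 7 and MT1E at 16. In hypoxia with siARNT all 6 were again called lower without overlap, where 1.89% of all tested genes were called lower, 2.21% higher, and 10.7% did not overlap and were lower. The positions were then 1 for MT1G, 2 for MT1M, 4 for MT1F, 5 for MT2A, 7 for MT1X and 11 for MT1E. The median over the 6 genes was -2.4 with siControl and -2.79 with siARNT, beside 0.02 and -0.04 over all tested genes. The choice of genes rests on these same contrasts, so nothing is read from the calls.

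**Figure D2:**
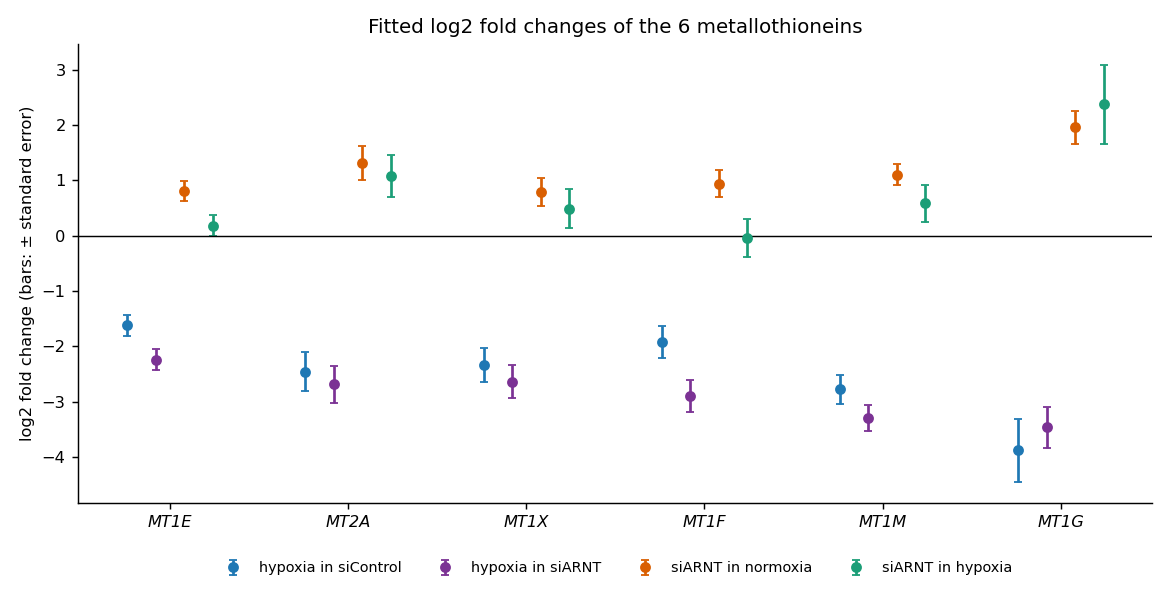
Fitted log2 fold changes (vertical axis) of the 6 metallothioneins in 4 comparisons, with bars of 1 standard error. The hypoxia changes lie between -1.62 and -3.88, and the siARNT changes in normoxia lie between 0.79 and 1.96.

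The effect of siARNT in normoxia was a rise. MT1G rose by 1.96 on the log2 scale (SE 0.296, adjusted p = 0.00102), MT2A by 1.31 (SE 0.312, adjusted p = 0.0148) and MT1M by 1.11 (SE 0.188, adjusted p = 0.0022). MT1F rose by 0.94 (SE 0.241, adjusted p = 0.0194) and MT1E by 0.80 (SE 0.181, adjusted p = 0.0104). MT1X missed the threshold, with a change of 0.79 (SE 0.26, adjusted p = 0.0511). Thus 5 of 6 were called higher and none lower, while 9.42% of all tested genes were called higher and 10.8% lower. In all 6 genes the siARNT libraries lay above the siControl libraries, which was so for 23.2% of tested genes. The median change of the 6 was 1.02, beside 0.01 over all tested genes. These tests use the same normoxia libraries as the hypoxia contrasts that chose the members.

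One library carried much of the size of that rise. Normoxia siARNT B was the highest library for every member, and without it the changes were 1.63 for MT1G (adjusted p = 0.00143), 0.89 for MT1M (0.00468), 0.76 for MT2A (0.0127) and 0.55 for MT1E (0.0214), all still called. MT1F then stood at 0.61 (adjusted p = 0.0524) and MT1X at 0.38 (0.193), so 4 of 6 remained called. In that fit 12.7% of all tested genes were called in either direction. Leaving out normoxia siControl A left 2 of 6 called and leaving out normoxia siControl C left 3, with the changes of each gene still positive. Those fits called 9.29% and 9.12% of all tested genes, beside 20.2% with all 12 libraries. The same library had the steepest relation of count to the GC content of a gene, 0.44 log2 units per 10 GC points, against -0.21 to 0.25 in the others. The members have a GC content of 53.5 to 62.5%, above the 47.7% median of the tested genes. With counts corrected for GC content all 6 were called higher, with smaller changes, from 0.50 for MT1M (adjusted p = 0.0148) to 1.65 for MT1G (adjusted p = 3.49e-05). The correction also raised the share of all tested genes called, to 32.4%.

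Marker genes moved in the same comparison. Of the 8 epithelial markers, 5 were called higher under siARNT in normoxia and 1 lower, beside 9.42% and 10.8% of all tested genes. CEACAM6 fell by 0.49 (adjusted p = 0.000752), from a mean of 2682 CPM with siControl to 1911 with siARNT. KRT7, at means of only 1.36 and 2.82 CPM, rose by 1.06 (adjusted p = 0.0241) and KRT8 by 0.89 (adjusted p = 0.0286). KRT8, a keratin of simple epithelia, was also highest in normoxia siARNT B, at 3459 CPM beside 1894 and 1927 in A and C. The summed level of the 8 was 6334 to 6881 CPM in normoxia siControl and 7200, 10000 and 7108 CPM in normoxia siARNT A, B and C. In hypoxia it was 6308 to 7159 CPM with siControl and 5914 to 7168 CPM with siARNT. Of the 5 leukocyte markers CD14, on 13 to 46 reads per normoxia library, rose by 1.10 (adjusted p = 0.0221), LYZ fell by 0.30 (adjusted p = 0.0336), CD68 was not called, CD3E was at 0 in all 12 libraries and PTPRC at or below 0.0937 CPM. The leukocyte sum was 213.5 to 230 CPM in normoxia siControl, 165.1 to 189.3 in normoxia siARNT, 184.8 to 220.2 in hypoxia siControl and 130.5 to 159.1 in hypoxia siARNT. Nearly all of that sum was LYZ, at 212.7 to 229.2 CPM in normoxia siControl and 163.4 to 188 in normoxia siARNT. CD14 was not called for hypoxia, with changes of -0.92 with siControl (adjusted p = 0.0897) and -1.07 with siARNT (adjusted p = 0.0683). Their part in the change of the metallothioneins was not tested.

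For siARNT in hypoxia MT1G rose by 2.38 (SE 0.713, adjusted p = 0.0257), on 19 against 4 reads. It was the only called member, 1 of 6, in a comparison where 14.4% of all tested genes were called higher and 14.7% lower. MT2A changed by 1.08 (SE 0.375, adjusted p = 0.0506), a value so near the threshold that alternative settings moved it across, with adjusted p from 0.0013 to 0.178. MT1M changed by 0.58 (adjusted p = 0.299), MT1X by 0.49 (0.332), MT1E by 0.18 (0.531) and MT1F by -0.04 (0.949). For MT1E the normal 95% interval of the change ran from -0.2 to 0.56, and for MT1F from -0.71 to 0.64. The siARNT libraries lay above the siControl libraries for MT1G, MT2A and MT1M, beside 20% of all tested genes. The median of the 6 was 0.54, beside 0.02 over all genes. The call of MT1G was lost without any 1 of the 3 hypoxia siControl libraries (adjusted p 0.0655 to 0.067) and without hypoxia siARNT C (adjusted p = 0.105).

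Whether siARNT altered the hypoxia change was tested as an interaction, the hypoxia change with siARNT minus that with siControl. It shares its libraries with the hypoxia contrasts behind the choice of genes. For MT1E, which the choice used in both contrasts, it is a description and not a test. None of the 6 members was called, where 2.49% of all tested genes were called higher and 2.19% lower. MT1E and MT1F had unadjusted p-values under 0.05 in edgeR, with differences of -0.62 (SE 0.264, adjusted p = 0.207) and -0.98 (SE 0.42, adjusted p = 0.213). The other 4 differences were -0.52 for MT1M, -0.30 for MT1X, -0.23 for MT2A and 0.42 for MT1G, with adjusted p from 0.499 to 0.807. Without normoxia siARNT B the sign turned for MT1X (0.11) and MT2A (0.33), and without hypoxia siARNT C it turned for MT1G (-0.15). DESeq2 called none of the 6 either.

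Levels were compared between genes only per length, as counts per kb of exon per M. In normoxia siControl MT1E was at 10.1 ± 0.998, MT2A at 3.18 ± 0.345, MT1X at 1.25 ± 0.0428, MT1M at 0.974 ± 0.0817, MT1F at 0.747 ± 0.045 and MT1G at 0.531 ± 0.0908 (SD, n = 3). Neighbours in that order did not overlap in their 3 libraries. MT1E made up 60.2 ± 1.1% of the summed level per length with siControl and 53.9 ± 4% with siARNT in normoxia, and 73.3 ± 2.7% and 63.5 ± 3.4% in hypoxia. MT2A, the second in every group, held 18.9 ± 0.8%, 22.7 ± 4.2%, 12.9 ± 0.4% and 20.6 ± 1.7% in the same order of groups. With the longest transcript as the length MT1E made up 63.2, 56.8, 75.7 and 65.9% in that order, with MT2A again second. Neither length takes account of the uneven coverage of the MT1E exons given below. MT1G held 3.2 ± 0.7% in normoxia siControl and 0.7 ± 0.3% in hypoxia siControl. MT1X, MT1G and MT1M could not be ordered in normoxia siARNT, where they stood at 2.17, 2.1 and 2.09 with SDs of 0.916, 0.736 and 0.501. MT1M, MT1F and MT1G likewise lay within their spread in hypoxia siARNT, at 0.213, 0.195 and 0.19.

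**Figure D3:**
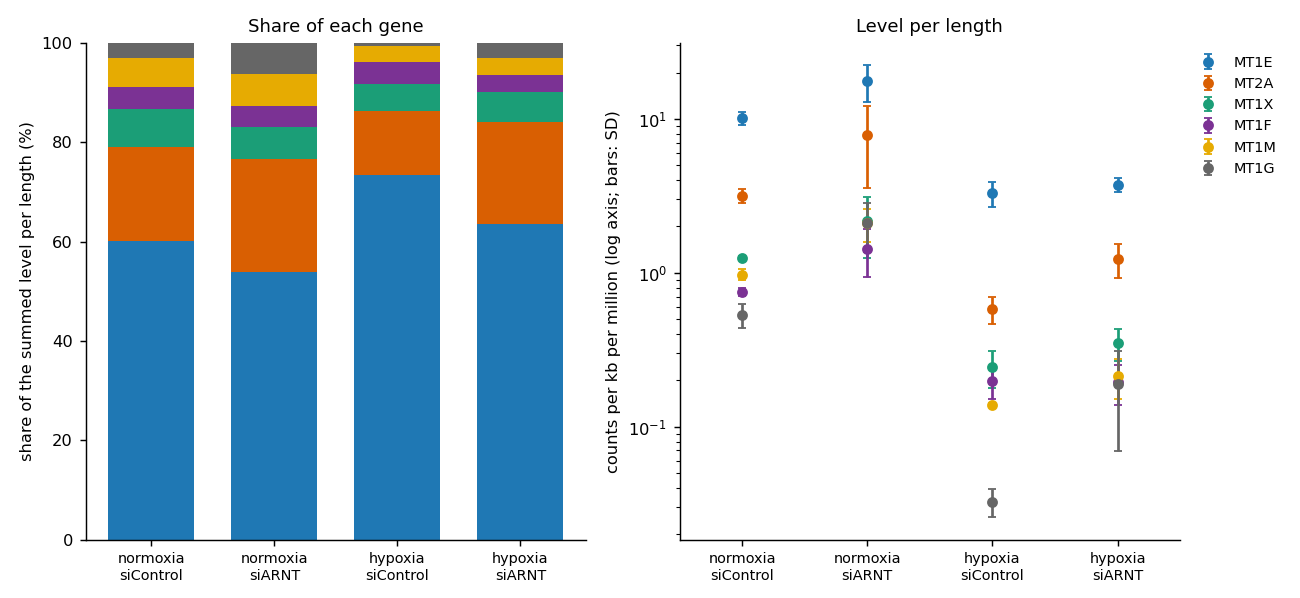
Share of each gene in the summed level per length (left, bars from 0 to 100%) and the level per length itself (right, log axis, mean with SD over 3 libraries), by group. MT1E makes up 53.9 to 73.3% of the level per length in each group, and MT2A is second in every group.

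Reads over single exons of MT1E were also deposited. They give the mean coverage of its 3 exons, and over the last exon, which had the highest coverage, coverage per M gene counts was 4.21, 4.97 and 4.72 in normoxia siControl and 6.87, 9.15 and 6.8 in normoxia siARNT. In hypoxia it was 1.23, 1.62 and 1.36 with siControl and 1.6, 1.49 and 1.71 with siARNT. The order of the groups over the last exon was thus that of the gene counts. The second exon differed far more between libraries. Its coverage was 5.3 to 14.6% of that of the last exon in the normoxia siControl libraries and 20.4, 81.6 and 22.2% in normoxia siARNT A, B and C. In hypoxia it was 11.5 to 33.1% with siControl and 12.2 to 41% with siARNT. Each of 15176 exon skip events gave a ratio of its skipped exon to the flanking exon listed after it. That flanking exon had a coverage of at least 50 in every library, and the median ratio was 86.8 to 89.5% in each. The flanking exon need not be the last of its gene, so these medians are not a like background for MT1E. In normoxia siARNT B the second exon of MT1E reached 7.47 per M, beside 1.4 and 1.51 in the other 2 libraries of its group. Both the GC slope and this ratio were highest in normoxia siARNT B and next in hypoxia siARNT C (0.25, ratio 41%), while hypoxia siARNT B had a ratio of 37.3% at a slope of 0.02. The part of the GC slope in the level of MT1E was not tested by exon.

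**Figure D4:**
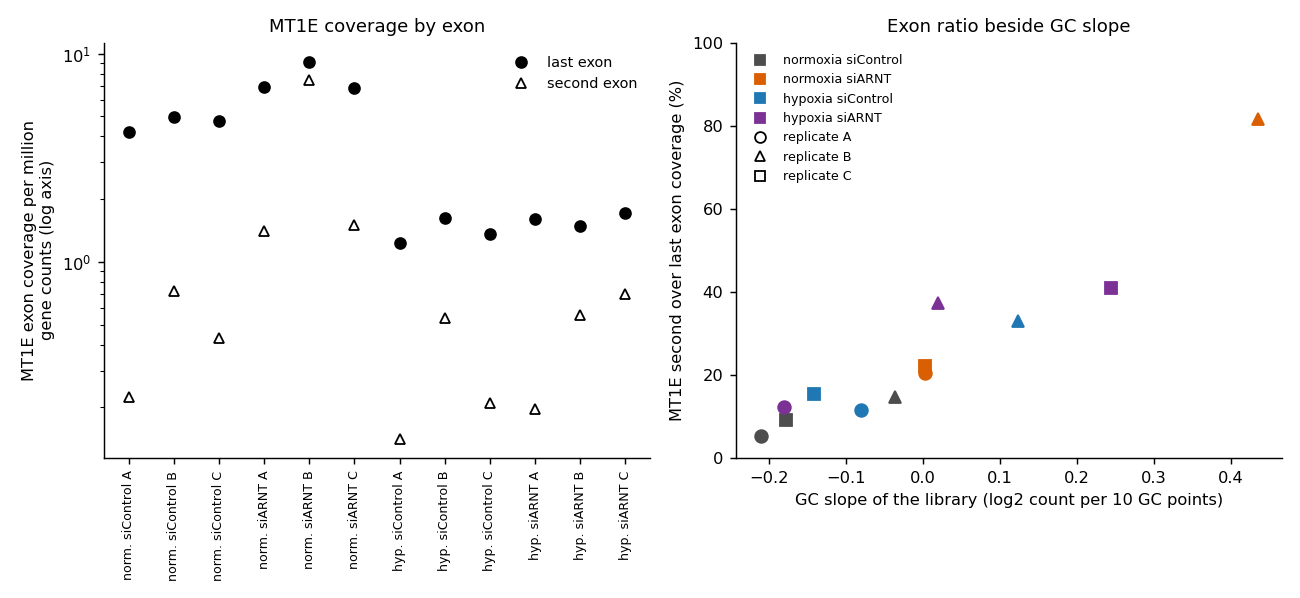
MT1E coverage of the last and the second exon per M gene counts in each library (left, log axis), and the ratio of the second to the last exon beside the GC slope of the library (right). Normoxia siARNT B stands apart with a ratio of 81.6% and a GC slope of 0.44, while its last exon coverage of 9.15 is nearer to the 6.8 and 6.87 of its group.

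Splicing within the members was a readout that the choice of genes did not use. The event files list 4 events in the 6 genes, and 2 of them, both in MT1E and both about the same second exon, had at least 10 reads in every library. Reads that skip the exon were rare, from 0 to 6 per library, and the inclusion of the exon was 86.2 to 100%. Neither event was called in any of the 5 comparisons by limma with Benjamini-Hochberg adjustment over 45927 events, with adjusted p from 0.818 to 1, and none had an unadjusted p under 0.05. Calls were scarce among all events, 0.0348% of events for hypoxia in siControl, 0.0414% for hypoxia in siARNT, 0.0196% for siARNT in normoxia, 0.037% for siARNT in hypoxia and 0.0479% for the interaction. In MT1X 6, 9 and 2 reads lay over both 5′ sites in hypoxia siControl A, B and C, under the 10 required. Its less used site had 0 to 3 reads per library. In MT1G hypoxia left 0 to 2 reads per library over both 3′ sites, so the events of MT1X and MT1G were not tested.

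The rest of the family was much lower. MT1L, a member with a disrupted reading frame, had 22, 18 and 11 reads with siControl and 51, 49 and 30 with siARNT in normoxia, and 6, 6 and 8 with siControl and 9, 7 and 8 with siARNT in hypoxia. That is 0.204 to 0.844 CPM in normoxia and 0.0905 to 0.195 CPM in hypoxia. It entered the test with few reads in hypoxia and was named after its values were seen, so no test is given. MT1A held 9 to 17 reads per normoxia library and 0 to 3 per hypoxia library. MT1B and MT1H were at 5 reads or fewer in every library. MT3, MT4 and MT1HL1 were at 0 in all 12, and of the 8 pseudogenes looked for 7 were found, none of them high enough to test.

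MTF1, the transcription factor of the metal response, was not called in hypoxia with either siRNA, and it rose under siARNT in hypoxia by 0.34 (SE 0.057, adjusted p = 0.000899). Its level in normoxia was 34.6 ± 0.515 CPM with siControl and 37.5 ± 0.489 with siARNT, and in hypoxia 31.1 ± 1.41 and 39.4 ± 1.57. SLC30A1, the zinc exporter that MTF1 is known to induce, was measured beside them. Its normoxia level was 129 ± 16.6 CPM with siControl and 177 ± 30.1 with siARNT, and its hypoxia level 160 ± 14.4 and 170 ± 6.94. It rose under siARNT in normoxia by 0.46 (SE 0.123, adjusted p = 0.0244). Its hypoxia change was 0.31 with siControl (adjusted p = 0.0898) and -0.05 with siARNT (adjusted p = 0.832), neither of them called.

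The counts that follow are to be read beside the shares of all tested genes called. These were 25.3% for hypoxia with siControl and 4.09% for hypoxia with siARNT. For siARNT they were 20.2% in normoxia and 29.1% in hypoxia. No difference between the siRNAs is read from the counts for hypoxia. Among 7 zinc exporters tested, SLC30A10 rose in hypoxia with siControl by 0.54 (adjusted p = 0.00988) and SLC30A5 fell by 0.27 (adjusted p = 0.0214), and with siARNT none was called for hypoxia. Of 12 zinc importers tested, 1 rose and 2 fell in hypoxia with siControl and none was called with siARNT. SLC39A8, which also carries cadmium and manganese, fell by 0.82 with siControl (adjusted p = 0.000353). Under siARNT 2 importers rose in normoxia, SLC39A10 by 0.32 and SLC39A14 by 0.26, and 4 rose in hypoxia, with SLC39A11 at 0.39 (adjusted p = 0.000795), SLC39A10 at 0.28 and SLC39A6 at 0.22 the largest. The median over the 12 importers was 0.21 in normoxia and 0.20 in hypoxia.

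Of 14 copper genes tested, 1 rose and 3 fell in hypoxia with siControl. ATP7A rose by 0.38 (adjusted p = 0.013). SCO1, a copper chaperone of cytochrome oxidase, fell by 0.54 (adjusted p = 0.000341), STEAP3, a metalloreductase, by 0.53 (0.00379) and SLC31A1, the main copper importer, by 0.37 (0.00373). With siARNT none of the 14 was called for hypoxia. Among 12 genes of heavy metal and oxidant stress, 1 rose and 2 fell in hypoxia with siControl. HMOX1, heme oxygenase, rose by 0.64 (adjusted p = 0.0459), SLC7A11, the cystine importer, fell by 0.42 (adjusted p = 0.0114) and GCLM, a partner subunit of GCLC, fell by 0.30 (adjusted p = 0.0398). With siARNT SLC7A11 was the only one called for hypoxia, at -0.51 (adjusted p = 0.0241). HMOX1 also rose by 0.68 under siARNT in normoxia (adjusted p = 0.0426). Also under siARNT in normoxia, GCLC, which makes the precursor of glutathione, fell by 0.52 (adjusted p = 0.00122), TXNRD1, a thioredoxin reductase, fell by 0.44 (adjusted p = 0.000465) and DNAJB1, a heat shock co-chaperone, rose by 0.31 (adjusted p = 0.00663).

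Of 9 glucocorticoid-responsive genes tested, 3 rose and 2 fell in hypoxia with siControl, and 1 rose and 1 fell in hypoxia with siARNT. Under siARNT in hypoxia 2 rose and 5 fell, where 14.4% of all tested genes were called higher and 14.7% lower. FKBP5, a co-chaperone of the glucocorticoid receptor, fell by 0.84 in hypoxia with siControl (adjusted p = 3.92e-06), and ERRFI1, an inhibitor of EGF receptor signalling, rose by 0.99 (adjusted p = 3.92e-06). The directions within this list were thus mixed.

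Of 6 tested neighbours of the cluster on 16q13, NUP93, a nuclear pore protein, fell in hypoxia with siControl by 0.77 (adjusted p = 0.000268), OGFOD1, a ribosomal prolyl hydroxylase, by 0.58 (adjusted p = 9.86e-05) and NUDT21, a cleavage factor of the 3′ end of transcripts, by 0.24 (adjusted p = 0.049). None of the 6 was called for hypoxia with siARNT.

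**Figure D5:**
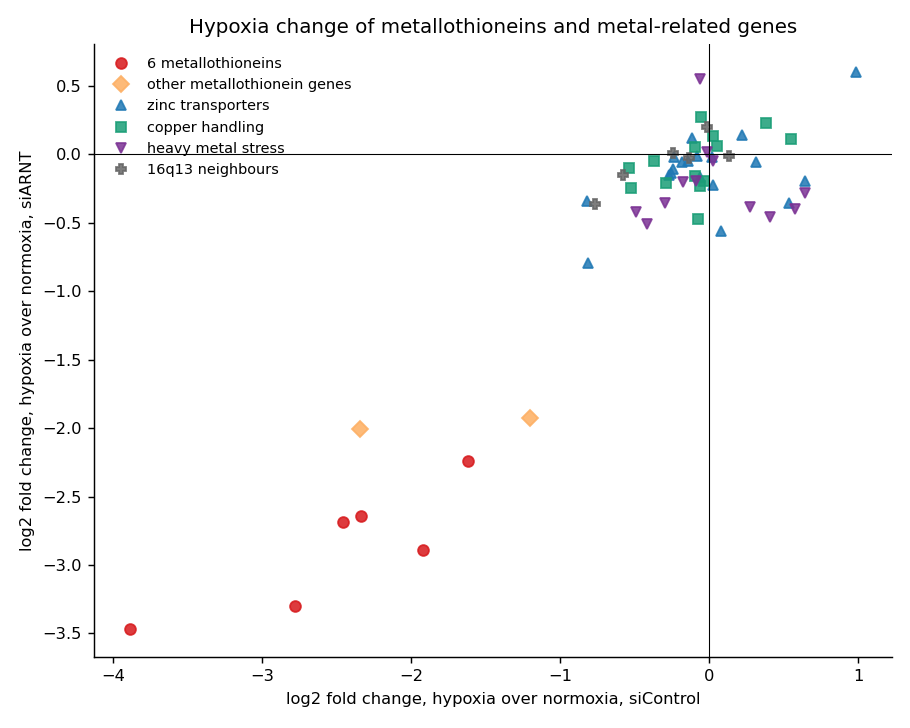
Fitted log2 fold changes of hypoxia with siControl (horizontal axis) and with siARNT (vertical axis), 1 point per gene. The 6 metallothioneins lie at -1.62 or below on the horizontal axis and at -2.24 or below on the vertical axis, and MT1L and MT1A beside them rest on 9 reads or fewer per hypoxia library.

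The members resembled each other across the 12 libraries, with Pearson r of log2 CPM between 0.898 and 0.988 over the 15 pairs, and between 0.346 and 0.944 after the group means were removed. Among 9734 genes outside the family with a mean of at least 5 CPM, those most like MT1E were CHST4 (r = 0.969), QPRT (0.968), NRP2 (0.968), SORD (0.957) and COA7 (0.956). Among those most like MT2A were NOP16 (0.979), WARS1 (0.978), SORD (0.975) and NOP9 (0.973). These values are given as a description over 12 samples in 4 groups, which share their libraries and depth. The fitted hypoxia changes of these 8 named genes were smaller than those of the metallothioneins, the largest being that of COA7, at -0.91 with siControl and -0.75 with siARNT.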

How the data were processed

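Poly(A) RNA of 12 AsPC-1 samples was sequenced as stranded single reads. The authors deposited whole-number read counts per gene ID for each library. Per the submitters' processing notes, Trimmomatic, STAR 2.4.2a and GRCh38.p10 were used. The deposited splicing event files give junction read counts and mean coverage of introns and exons as a signal, per the file headers. Their coordinates did not match GRCh38 and were not used.

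Lines that name no gene (22.71 to 25.2% of each library's reads) did not enter library sizes. Of 57820 gene IDs, 51996 were paired with a symbol, holding 99.35% of the counts. Counts were fitted with edgeR 4.0.16 (R 4.3.3, TMM, filterByExpr, robust quasi-likelihood, 1 mean per group over all 12 samples). Splicing was tested with limma 3.58.1 on the log2 ratio of inclusion to exclusion counts, with 0.5 added to each, for events with at least 10 reads in every sample. DESeq2 1.42.0 was an alternative. The code was tested on simulated data. Replicates of a group were compared by chi-square, and all 12 pairs differed by more than counting noise.

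The members and lists were chosen with earlier results of these data known. Genes named were the members, ARNT, genes that were the only tested one of their role or among the 3 called genes of a list with the largest change in a comparison (mean at least 1 CPM), and the 5 genes most like MT1E and MT2A, of which 1 is not reported here. MT1L, MT1A, MT1B, MT1H, MT3, MT4, MT1HL1, SLC31A1 and the marker genes were named outside that rule, after their values were seen.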

Additional observations from a re-analysis of the deposited data

Results flagged for a closer look

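MT1E is given here as a description only. None of the 6 metallothioneins differed in its hypoxia change between the siRNAs at an adjusted p under 0.05 (edgeR). An unadjusted p under 0.05 was held by 2 of the 6 metallothioneins. In the lists beside them 9 genes did differ, by the edgeR interaction test, where 4.69% of all tested genes were called. The lists with a call held 7 zinc exporters, 14 copper genes, 9 glucocorticoid-responsive genes, 6 neighbours of the cluster and 8 epithelial markers tested. None of 12 zinc importers and none of 12 genes of heavy metal and oxidant stress was called. The difference, hypoxia change with siARNT minus that with siControl on the log2 scale, was -0.90 for SLC30A10 (adjusted p = 0.0207), a zinc and manganese exporter, and 0.44 for SCO1 (adjusted p = 0.0395). Among glucocorticoid-responsive genes it was 0.79 for FKBP5 (adjusted p = 0.000467), -0.86 for TSC22D3 (adjusted p = 0.00057), -0.72 for DUSP1 (adjusted p = 0.021) and -0.63 for ERRFI1 (adjusted p = 0.00605). For OGFOD1, the neighbour of the cluster, it was 0.43 (adjusted p = 0.0284). Among the epithelial markers it was -1.21 for MUC1 (adjusted p = 0.000955) and -0.43 for CDH1 (adjusted p = 0.00517). Hypoxia moved TSC22D3 by 0.48 with siControl (adjusted p = 0.0004) and by -0.38 with siARNT (adjusted p = 0.0176).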

How the results depend on the processing

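For hypoxia in siControl all 6 members were called lower under every alternative, and no member's change turned in sign in either hypoxia comparison. The alternatives called 10.3 to 43.6% of all tested genes for hypoxia in siControl. The choice of genes rests on the hypoxia contrasts, so nothing is read from these calls either. For hypoxia in siARNT 4 of 6 were called when only its own 6 libraries were fitted (MT1X adjusted p = 0.0585, MT2A 0.0669). That fit called 0.135% of all tested genes. For siARNT in normoxia the number called ran from 2 to 6 when single libraries were left out, in fits that called 9.12 to 23.9% of all tested genes. For siARNT in hypoxia it was 2 in place of 1 with total count scaling, DESeq2 size factors in edgeR, DESeq2, a replicate block by letter, the GC correction, and both of these together, and ran from 0 to 2 when single libraries were left out. Those settings called 28.2 to 47.3% of all tested genes there, beside 29.1% in the fit reported above. The fits that left out a library called 20.5 to 34%. For siARNT in hypoxia the scaling by total counts shifted the all-gene median to 0.10 and turned MT1F to 0.046. For the interaction it was 1 in place of 0 with the GC correction and a replicate block together, MT1E at -0.49 (adjusted p = 0.0223). That setting called 19.5% of all tested genes for the interaction, beside 4.69% in the fit reported above. Nothing is read from that call, as the choice of genes used both hypoxia contrasts of MT1E. Leaving out single libraries moved MT1F for siARNT in hypoxia from -0.18 to 0.21, and the interaction of MT1G from -0.15 to 0.75, MT1X from -0.48 to 0.11 and MT2A from -0.46 to 0.33; the cause was not tested. With the replicate block by letter MT1X rose under siARNT in normoxia (0.72, adjusted p = 0.0317). Over all settings that left out no single library, the adjusted p there reached 0.0563 for MT2A and 0.0877 for MT1X. The call of MT2A thus depended on the setting, while MT1E, MT1F, MT1G and MT1M stayed called, at 0.0438 or below. Those settings, in edgeR or DESeq2, called 7.54 to 34.6% of all tested genes for siARNT in normoxia. The protocol splits transfected wells, but the labels do not say that a letter marks a well. After group means were removed, the 18 same-letter pairs correlated from -0.384 to 0.489, the 6 pairs of letter A from 0.06 to 0.472, and 6 of 12 libraries correlated best with their own letter, so pairing was not established. With at least 20 reads required in every sample no event of a member was left. Per hypoxia library MT1M rests on 6 to 11 reads and MT1G on 1 to 10.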
